A study of Mus musculus with 105 samples.

Results

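The mRNA of 32 genes, made up of the transcription factor gene Myc and 31 genes whose proteins make ribosomes, was compared between contact-inhibited fibroblasts, dividing fibroblasts and embryonic stem cells of the mouse. The 32 genes were given as a list of symbols, and each was matched to 1 of the 54532 gene identifiers of the mRNA count table. The series as a whole traced the making and loss of microRNAs in 105 samples, and 6 of these are poly(A)-selected mRNA libraries, 2 per line. CIMEF are C57BL/6J embryo-derived fibroblasts held in contact inhibition, a state in which crowded cells stop dividing, for 5 days. DMEF are C57BL/6J embryo-derived fibroblasts that were passaged and kept dividing. ESC are v6.5 embryonic stem cells (strain given as C57BL/6), grown in medium with LIF and the inhibitors PD0325901 and CHIR99021. Fibroblasts were grown in DMEM with fetal bovine serum, all lines were at passages 5 to 15, and no labelling agent or time is given for the mRNA samples. ESC therefore differ from both fibroblast lines in cell type, strain label and medium, and these cannot be told apart.

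Ribosomes are assembled in the nucleolus. RNA polymerase I copies the ribosomal DNA into a long precursor, which is folded, chemically modified by small nucleolar ribonucleoproteins (snoRNPs), cut and packed with ribosomal proteins into a small and a large subunit. The protein Myc, paired with its partner Max, binds the DNA sequence CACGTG (an E-box) and is known for raising the transcription of genes in each of these steps. In fibroblasts, serum is a classical inducer of Myc, and crowded or starved cells are known for a low output of ribosomes.

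All listed genes passed the filter on low counts and were tested, with 38 to 561 counts per library for Fbl, the most thinly covered, and 163 or more for every other gene. Levels are given as CPM, counts per 1000000 counts after the library totals were scaled with edgeR's TMM method. Since transcript lengths were not used, a CPM is compared here only between libraries for 1 gene, never between genes. Differences are on the log2 scale from edgeR's quasi-likelihood test over all 18094 tested genes, with Benjamini-Hochberg adjustment over all of them and a threshold of 0.05, and a gene is said to rise or fall only if it passed. Library totals were 23030907 to 34093791 counts. No label says that the 2 libraries of a line came from separate cultures, so the p-values measure only the spread between these libraries. That spread was smaller in ESC (median absolute log2 difference 0.11 over all tested genes) than in CIMEF (0.34) and DMEF (0.29). The fit used a single spread per gene over all 6 libraries, so the ESC libraries also enter the p-values between CIMEF and DMEF. The gene Gm42418 alone took 7.95% and 4.53% of the counts in ESC against 1.22% to 2.84% in the fibroblasts. Leaving it out with Gm26917 left 30, 31 and 32 listed genes called in the 3 comparisons, as with it.

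The genes of ribosome production formed a ladder with CIMEF at the bottom, DMEF in the middle and ESC at the top. Of the 31 such genes, 31 had both ESC libraries above both DMEF libraries and both DMEF libraries above both CIMEF libraries. That order held for 18.0% of all tested genes. The summed level of the 31 genes was 2217 and 2026 CPM in CIMEF, 3838 and 4306 CPM in DMEF, and 10563 and 10475 CPM in ESC. The 31 genes thus took 0.202% to 0.223% of the counts of CIMEF libraries, 0.330% and 0.392% of those of DMEF, and 1.16% and 1.21% of those of ESC. Libraries of different lines did not overlap on this sum. Without Ncl the sum was 1643 and 1478 CPM in CIMEF, 3002 and 3429 CPM in DMEF, and 8209 and 8113 CPM in ESC. As these are bulk samples, a smaller number of cells of a kind and less RNA per cell cannot be told apart.

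**Figure D1:**
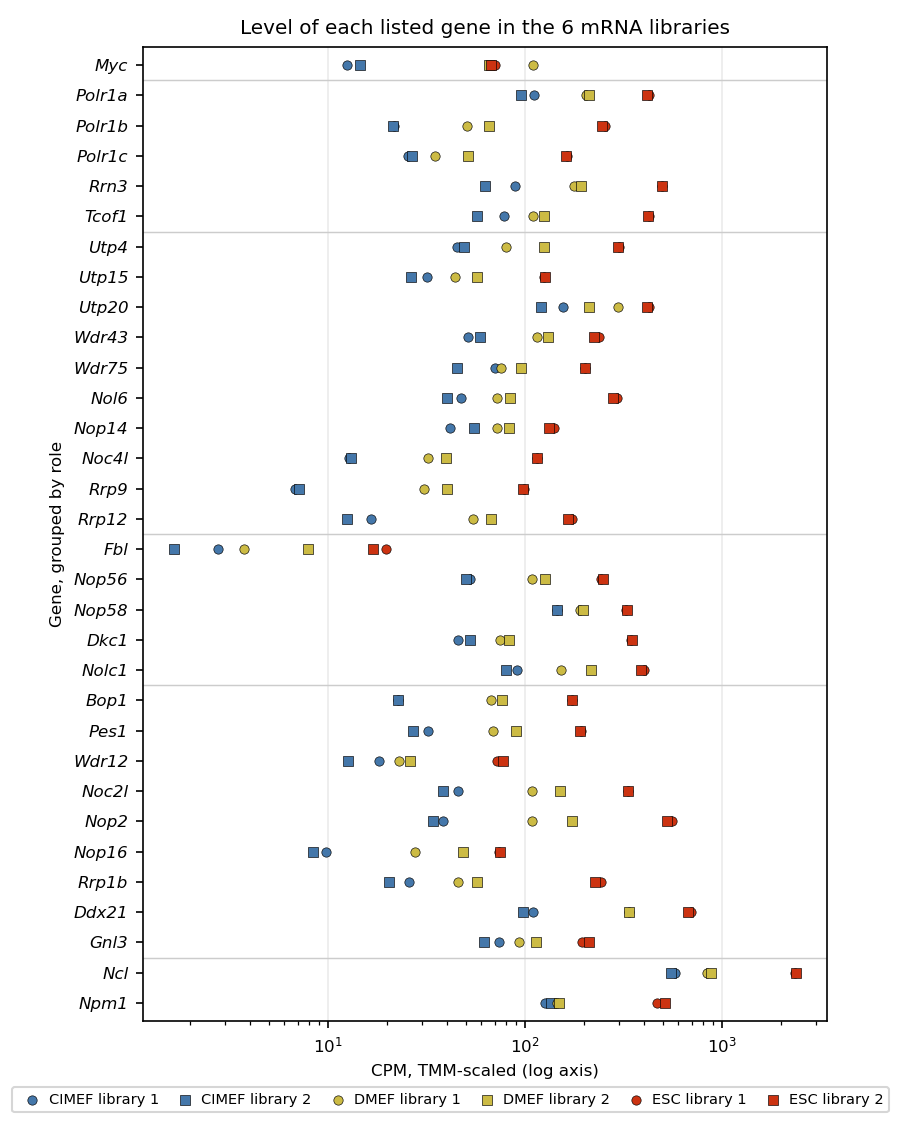
CPM of each listed gene (log axis) in the 6 mRNA libraries, 1 point per library, with genes grouped by role from Myc at the top to Ncl and Npm1 at the bottom. Points are to be compared along a row: for the 31 genes other than Myc, both CIMEF points lie left of both DMEF points, which lie left of both ESC points.

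In CIMEF against DMEF, 30 of the 32 genes fell and 0 rose, where 21.4% of all tested genes fell and 20.6% rose. The median log2 difference of the 32 genes was -1.14, a 2.21-fold lower level, beside 0 over all genes. At an unadjusted p under 0.05 edgeR had 31 genes lower and 0 higher, and DESeq2 called 30 lower and 0 higher. Both CIMEF libraries lay below both DMEF libraries for 32 of 32 genes, an arrangement found in 36.2% of all tested genes. Wdr75 and Npm1 did not pass. With library totals alone in place of TMM, the median of all genes moved to 0.16, 4640 genes rose and 2827 fell against 3723 and 3881 with TMM, and 24 of the listed genes fell.

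In ESC against DMEF, 31 of the 32 genes rose and 0 fell, where 31.5% of all tested genes rose and 30.2% fell. Their median log2 difference was 1.39, beside 0.06 over all genes, and Myc was the gene that did not rise. Both ESC libraries lay above both DMEF libraries for 31 of 32 genes, against 44.7% of all genes. The split over all genes depended on the scaling: 5707 rose and 5468 fell with TMM, 7088 and 4628 with upper-quartile scaling (median of all genes 0.34), and 7354 and 4423 with library totals alone (median 0.41). The count of listed genes that rose was 31 under each of these, with 0 lower at an unadjusted p under 0.05 and 0 lower by DESeq2. In ESC against CIMEF, 32 of 32 genes rose, where 39.0% of all genes rose, and the median log2 difference was 2.66 (0.06 over all genes). Both ESC libraries lay above both CIMEF libraries for all 32 genes, which 46.6% of all genes showed. The 3 comparisons share their libraries in pairs, so they are not independent of each other.

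Myc, a single gene at chr15:61985341-61990361 (GRCm38.p6), did not follow the ladder. It had 12.5 and 14.6 CPM in CIMEF, 109.8 and 66.0 CPM in DMEF, and 70.0 and 66.8 CPM in ESC. The CIMEF libraries stood far below the other 4, and ESC library values lay between those of the DMEF libraries. Myc fell in CIMEF against DMEF by a log2 difference of -2.70 (SE 0.26, edgeR adjusted p = 0.000952), a 6.50-fold lower level and the most negative value of the 32 genes. It rose in ESC against CIMEF by 2.34 (SE 0.26, edgeR adjusted p = 0.000197). Between ESC and DMEF the log2 difference was -0.36 (SE 0.24, edgeR adjusted p = 0.233), with a 95% interval of -0.94 to 0.22. That last value rested on the choice of DMEF library: it was 0.09 without DMEF library 1 (adjusted p = 0.681) and -0.64 without DMEF library 2 (adjusted p = 0.0291). Per CPM of Myc, the summed CPM of the 31 other genes was 35.0 and 65.3 in DMEF, beside 178 and 139 in CIMEF and 151 and 157 in ESC. DMEF thus had the lowest ratios to Myc alone. The related genes Mycn and Mycl are left out of these ratios. Mycn had 91.3 and 86.6 CPM in ESC against 0.640 to 1.10 CPM in the fibroblast libraries, so the ESC ratios depend on leaving it out.

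The E-box CACGTG was looked for in promoter windows, taken from RefSeq (GRCm38.p6) as 250 bases before to 50 bases after an annotated start. The motif reads the same on both strands, so 1 search covers both. Windows were at hand for 25 of the 32 genes (29 windows). Myc, Tcof1, Nol6, Rrp12, Fbl, Bop1 and Npm1 are not covered. The motif was in 6 of the 29 windows (20.7%), beside 7.15% of all 32851 windows and 9.61% of the windows of tested genes. A match is a description of the letters in these windows and not evidence of binding. Only exact CACGTG within these windows was searched, so a window without a match is not evidence that Myc does not bind the gene.

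The 250 bases before the start are shown for Nop2 and Rrn3, whose windows hold the motif upstream of the start, and for Rrp9, whose window has no match and which fell the most among the 25 genes. Capitals mark CACGTG, and the sequences read 5′ to 3′ along the gene. In Nop2 the motif begins 60 bases before the start, and in Rrn3 it occurs 215 and 48 bases before it.
Nop2, chr6:125131633-125131882, plus strand: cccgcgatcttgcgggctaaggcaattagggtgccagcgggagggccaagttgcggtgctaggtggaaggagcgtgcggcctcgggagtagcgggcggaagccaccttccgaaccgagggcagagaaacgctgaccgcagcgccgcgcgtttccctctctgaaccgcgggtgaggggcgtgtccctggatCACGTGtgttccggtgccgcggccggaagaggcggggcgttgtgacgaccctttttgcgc
Rrn3, chr16:13780449-13780698, plus strand: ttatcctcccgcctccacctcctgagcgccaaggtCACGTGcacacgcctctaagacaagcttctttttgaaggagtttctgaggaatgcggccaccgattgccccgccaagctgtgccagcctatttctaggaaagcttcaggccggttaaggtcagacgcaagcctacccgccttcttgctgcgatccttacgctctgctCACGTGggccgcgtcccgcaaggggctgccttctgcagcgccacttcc
Rrp9, chr9:106477059-106477308, plus strand: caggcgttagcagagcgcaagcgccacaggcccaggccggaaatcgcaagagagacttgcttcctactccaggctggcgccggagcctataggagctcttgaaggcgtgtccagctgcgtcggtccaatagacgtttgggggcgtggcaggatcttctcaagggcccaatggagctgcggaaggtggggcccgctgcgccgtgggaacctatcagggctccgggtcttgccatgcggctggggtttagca

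In the other 4 genes the motif lies just inside the transcribed part, with its first base at position 3 in Pes1, 16 in Utp4, 18 in Wdr43 and 38 in Utp20, counted from 1 at the start. Only the bases around it are shown.
Pes1, chr11:3963965-3963994, plus strand: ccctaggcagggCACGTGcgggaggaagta
Utp4, chr8:106893643-106893672, plus strand: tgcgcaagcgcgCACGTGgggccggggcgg
Wdr43, chr17:71616220-71616249, plus strand: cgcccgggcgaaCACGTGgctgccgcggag
Utp20, chr10:88826765-88826789, minus strand: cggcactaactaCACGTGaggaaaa
The 6 genes with the motif had log2 differences of -1.96 to -0.87 between CIMEF and DMEF (median -1.22), and the 19 genes without it -2.35 to -0.42 (median -1.02). With 6 genes against 19, the narrower range of the genes with the motif says little, and the difference between the sets was not tested. In ESC against DMEF the medians were 1.35 with the motif and 1.31 without it.

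Genes of RNA polymerase I transcription fell in CIMEF in 5 of 5 cases and rose in ESC against DMEF in 5 of 5. Polr1a, which encodes the largest catalytic subunit, had 110.5 and 95.1 CPM in CIMEF, 205 and 211 CPM in DMEF, and 425 and 417 CPM in ESC. It fell by a log2 difference of -1.02 (SE 0.13, edgeR adjusted p = 0.00209) in CIMEF against DMEF and rose by 1.02 (SE 0.13, edgeR adjusted p = 0.000524) in ESC against DMEF, which are steps of about equal size. Polr1b, the gene of the second-largest subunit, had 21.7 and 21.5 CPM in CIMEF, 50.7 and 65.3 CPM in DMEF, and 255 and 244 CPM in ESC. Its steps were larger, -1.43 (SE 0.16, edgeR adjusted p = 0.00142) down from DMEF to CIMEF and 2.11 (SE 0.16, edgeR adjusted p = 4.4e-05) up from DMEF to ESC, and it was 11.6-fold higher in ESC than in CIMEF. Polr1c encodes a subunit that polymerases I and III share, and had 25.6 and 26.8 CPM in CIMEF, 34.9 and 51.4 CPM in DMEF, and 163 and 161 CPM in ESC. It lay lower in CIMEF than in DMEF by -0.72 (SE 0.20, edgeR adjusted p = 0.0261) and higher in ESC by 1.91 (SE 0.20, edgeR adjusted p = 0.000195). The 3 subunits therefore had unlike sizes of change in CIMEF (fitted log2 differences of -0.72 to -1.43), and the difference between them was not tested.

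Rrn3 encodes the initiation factor that brings the polymerase to the ribosomal DNA promoter, and had 88.5 and 62.2 CPM in CIMEF, 177 and 192 CPM in DMEF, and 498 and 493 CPM in ESC. Its log2 difference was -1.29 (SE 0.18, edgeR adjusted p = 0.00281) in CIMEF against DMEF and 1.42 (SE 0.18, edgeR adjusted p = 0.000526) in ESC against DMEF. Tcof1, the gene of the nucleolar protein treacle, which assists ribosomal DNA transcription, had 78.0 and 56.8 CPM in CIMEF, 109.6 and 125 CPM in DMEF, and 424 and 421 CPM in ESC. It fell by -0.80 (SE 0.18, edgeR adjusted p = 0.0128) and rose in ESC by 1.85 (SE 0.18, edgeR adjusted p = 0.000139). For both genes the CIMEF libraries were apart from each other but below both DMEF libraries.

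The 10 genes of the small-subunit processome, the large particle that forms on the nascent precursor, fell in CIMEF in 9 cases and rose in ESC against DMEF in 10. Their median log2 differences were -0.998 and 1.39. Rrp9 encodes the protein that marks the U3 snoRNP, the RNA guide of the first cuts, and had 6.80 and 7.10 CPM in CIMEF, 30.7 and 40.1 CPM in DMEF, and 98.2 and 97.7 CPM in ESC. It fell 5.10-fold, a log2 difference of -2.35 (SE 0.18, edgeR adjusted p = 0.000583), the most negative value after that of Myc. Rrp12, whose protein works in maturation and export of pre-ribosomes, had 16.5 and 12.4 CPM in CIMEF, 54.2 and 67.3 CPM in DMEF, and 172 and 164 CPM in ESC. It fell by -2.07 (SE 0.19, edgeR adjusted p = 0.000854). In ESC against DMEF, both genes had the same fitted value to 2 decimals, 1.47 (SE 0.17) and 1.47 (SE 0.18).

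Noc4l and Nop14 encode partners that bind each other in the particle. Noc4l had 12.7 and 13.1 CPM in CIMEF, 32.1 and 39.6 CPM in DMEF, and 115 and 115 CPM in ESC, and fell by -1.47 (SE 0.16, edgeR adjusted p = 0.00128). Nop14 had 41.5 and 55.2 CPM in CIMEF, 71.9 and 82.8 CPM in DMEF, and 139 and 133 CPM in ESC, and fell by -0.68 (SE 0.18, edgeR adjusted p = 0.0212). Noc4l also had the larger rise in ESC against DMEF, 1.68 (SE 0.16) against 0.82 (SE 0.17) for Nop14. Nol6, a scaffold protein gene of the particle, had 47.1 and 40.4 CPM in CIMEF, 71.9 and 83.9 CPM in DMEF, and 292 and 279 CPM in ESC, and its differences were -0.83 (SE 0.15, edgeR adjusted p = 0.00584) in CIMEF and 1.87 (SE 0.15, edgeR adjusted p = 5.5e-05) in ESC, each against DMEF.

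Utp4, Utp15, Wdr43 and Wdr75 encode subunits of UTP-A, the subcomplex that joins the precursor first and is linked to its transcription. Utp4 had 45.1 and 48.7 CPM in CIMEF, 80.5 and 124 CPM in DMEF, and 298 and 296 CPM in ESC, and fell by -1.13 (SE 0.21, edgeR adjusted p = 0.0069). Utp15 had 31.6 and 26.4 CPM in CIMEF, 44.1 and 56.9 CPM in DMEF, and 124 and 126 CPM in ESC, and fell by -0.80 (SE 0.18, edgeR adjusted p = 0.0124). Wdr43 had 51.3 and 58.9 CPM in CIMEF, 115 and 131 CPM in DMEF, and 238 and 224 CPM in ESC, and fell by -1.16 (SE 0.14, edgeR adjusted p = 0.00188). In these 3 genes no CIMEF library reached a DMEF library, and the DMEF libraries were farthest apart in Utp4. Wdr75 had 70.0 and 44.9 CPM in CIMEF, 75.5 and 95.9 CPM in DMEF, and 200.4 and 201 CPM in ESC, and its difference was -0.58 (SE 0.23, edgeR adjusted p = 0.0827), which did not pass. CIMEF library 1 was close to DMEF library 1 for this gene, and without CIMEF library 1 the difference was -0.87 (adjusted p = 0.01). All 4 rose in ESC against DMEF, by 1.54 (SE 0.21), 1.31 (SE 0.18), 0.91 (SE 0.14) and 1.23 (SE 0.23) in that order. Utp20, the gene of a very large scaffold protein, had 157 and 120.4 CPM in CIMEF, 295 and 211 CPM in DMEF, and 426 and 416 CPM in ESC. It fell by -0.87 (SE 0.20, edgeR adjusted p = 0.0151) and had the smallest rise of the 31 genes in ESC against DMEF, 0.74 (SE 0.20, edgeR adjusted p = 0.0168). That rise no longer passed without DMEF library 2 or when either ESC library was left out (adjusted p = 0.0536, 0.0684 and 0.0665).

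The 5 snoRNP genes fell in CIMEF and rose in ESC, in both cases 5 of 5, with median log2 differences of -1.11 and 1.09 against DMEF. Fbl, Nop56 and Nop58 form the core of the box C/D particles that methylate ribosomal RNA, with fibrillarin (Fbl) as the enzyme. Nop56 had 52.2 and 49.9 CPM in CIMEF, 109 and 127 CPM in DMEF, and 243 and 249 CPM in ESC and fell by -1.21 (SE 0.14, edgeR adjusted p = 0.00141). Nop58, its close relative in the same particle, had 145 and 145 CPM in CIMEF, 190.0 and 198 CPM in DMEF, and 324 and 328 CPM in ESC and fell by -0.42 (SE 0.12, edgeR adjusted p = 0.0285), the smallest fall that passed. The 2 partners thus had non-overlapping 95% intervals, -1.53 to -0.88 and -0.70 to -0.14, although their difference itself was not tested. Fbl had 2.75 and 1.65 CPM in CIMEF, 3.76 and 7.89 CPM in DMEF, and 19.8 and 16.8 CPM in ESC, from few counts, with a difference of -1.40 (SE 0.42, edgeR adjusted p = 0.0355) and a 95% interval of -2.40 to -0.40. Its DMEF libraries differed from each other by more than those of any other listed gene.

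Dkc1 encodes dyskerin, the pseudouridine synthase of the box H/ACA particles and a part of telomerase. It had 45.8 and 52.5 CPM in CIMEF, 75.0 and 82.9 CPM in DMEF, and 344 and 349 CPM in ESC. Its fall in CIMEF was modest, -0.68 (SE 0.14, edgeR adjusted p = 0.00864), and its rise in ESC against DMEF was 2.13 (SE 0.14, edgeR adjusted p = 2.2e-05), a 4.39-fold higher level. Nolc1, whose protein escorts both kinds of snoRNP, had 91.1 and 80.4 CPM in CIMEF, 153 and 216 CPM in DMEF, and 401 and 387 CPM in ESC, with differences of -1.11 (SE 0.19, edgeR adjusted p = 0.00494) in CIMEF and 1.09 (SE 0.19, edgeR adjusted p = 0.002) in ESC.

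Factors of the large subunit had the most negative median of the groups of 5 or more genes in CIMEF against DMEF, a log2 difference of -1.62 over 9 genes, and 9 of 9 fell. In ESC against DMEF 9 of 9 rose, with a median of 1.28. Nop2, the gene of an enzyme that methylates the RNA of the large subunit, had 38.4 and 34.2 CPM in CIMEF, 108 and 174 CPM in DMEF, and 558 and 528 CPM in ESC. It fell by -1.96 (SE 0.23, edgeR adjusted p = 0.00157) and rose in ESC by 1.95 (SE 0.23, edgeR adjusted p = 0.000335), so that ESC held a 15.0-fold higher level than CIMEF, the largest distance among the 32 genes. Nop16, a factor of early large-subunit particles, had 9.78 and 8.40 CPM in CIMEF, 27.7 and 48.3 CPM in DMEF, and 73.6 and 74.9 CPM in ESC. Its fall was as deep, -2.06 (SE 0.28, edgeR adjusted p = 0.00233), and its rise in ESC against DMEF was smaller, 0.96 (SE 0.26, edgeR adjusted p = 0.0152). The rise did not pass without ESC library 1 or 2 (adjusted p = 0.0578 and 0.0693).

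Bop1, Pes1 and Wdr12 encode the 3 proteins of the PeBoW complex, which is needed to cut the precursor of the large-subunit RNA. Bop1 had 22.6 and 22.6 CPM in CIMEF, 67.1 and 76.3 CPM in DMEF, and 174 and 173 CPM in ESC, and fell in CIMEF against DMEF by -1.66 (SE 0.14, edgeR adjusted p = 0.000667). Pes1 had 32.1 and 27.1 CPM in CIMEF, 68.5 and 89.6 CPM in DMEF, and 193 and 189.7 CPM in ESC, and fell by -1.42 (SE 0.18, edgeR adjusted p = 0.00188). Wdr12 had 18.1 and 12.7 CPM in CIMEF, 23.0 and 26.2 CPM in DMEF, and 72.4 and 77.7 CPM in ESC, and fell by -0.68 (SE 0.20, edgeR adjusted p = 0.0356). Wdr12 had the smallest fall of the 3 and the largest rise in ESC against DMEF, 1.61 (SE 0.20), beside 1.27 (SE 0.13) for Bop1 and 1.28 (SE 0.17) for Pes1.

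Noc2l, whose protein takes pre-60S particles through the nucleus, had 45.9 and 38.3 CPM in CIMEF, 108 and 151 CPM in DMEF, and 335 and 331 CPM in ESC and fell by -1.62 (SE 0.19, edgeR adjusted p = 0.0016). Ddx21, an RNA helicase gene, had 109 and 97.5 CPM in CIMEF, 336 and 337 CPM in DMEF, and 697 and 669.8 CPM in ESC and fell by -1.70 (SE 0.13, edgeR adjusted p = 0.000529). The DMEF libraries differed by little for Ddx21, and those for Noc2l by more. Rrp1b, the gene of a nucleolar factor, had 25.8 and 20.3 CPM in CIMEF, 45.8 and 57.0 CPM in DMEF, and 242 and 227 CPM in ESC. It fell by -1.15 (SE 0.18, edgeR adjusted p = 0.00366) and had the largest rise of the 32 genes in ESC against DMEF, 2.19 (SE 0.18, edgeR adjusted p = 6.3e-05). Gnl3 encodes nucleostemin, a nucleolar GTPase first known from stem cells, and had 73.9 and 62.1 CPM in CIMEF, 93.0 and 114 CPM in DMEF, and 195 and 211 CPM in ESC. Its change was among the smaller ones in each comparison, -0.60 (SE 0.16, edgeR adjusted p = 0.0236) in CIMEF and 0.98 (SE 0.16, edgeR adjusted p = 0.0017) in ESC, each against DMEF.

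Ncl and Npm1 encode nucleolin and nucleophosmin, abundant nucleolar proteins with roles in chromatin as well as in ribosome assembly. Ncl had 574 and 548 CPM in CIMEF, 836 and 877 CPM in DMEF, and 2354 and 2362 CPM in ESC. It fell in CIMEF against DMEF by -0.61 (SE 0.12, edgeR adjusted p = 0.00927) and rose in ESC by 1.46 (SE 0.13, edgeR adjusted p = 7.7e-05). Npm1 had 126 and 135 CPM in CIMEF, 145 and 148 CPM in DMEF, and 467 and 515 CPM in ESC. Its CIMEF libraries lay below its DMEF libraries by a log2 difference of -0.17 (SE 0.13, edgeR adjusted p = 0.319), with a 95% interval of -0.46 to 0.13, which did not pass and was 0.012 with library totals alone. It rose in ESC against DMEF by 1.74 (SE 0.13, edgeR adjusted p = 3.7e-05). Npm1 has processed pseudogenes in the mouse genome, and how reads shared with them were counted is not recorded, so its level is uncertain.

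**Figure D2:**
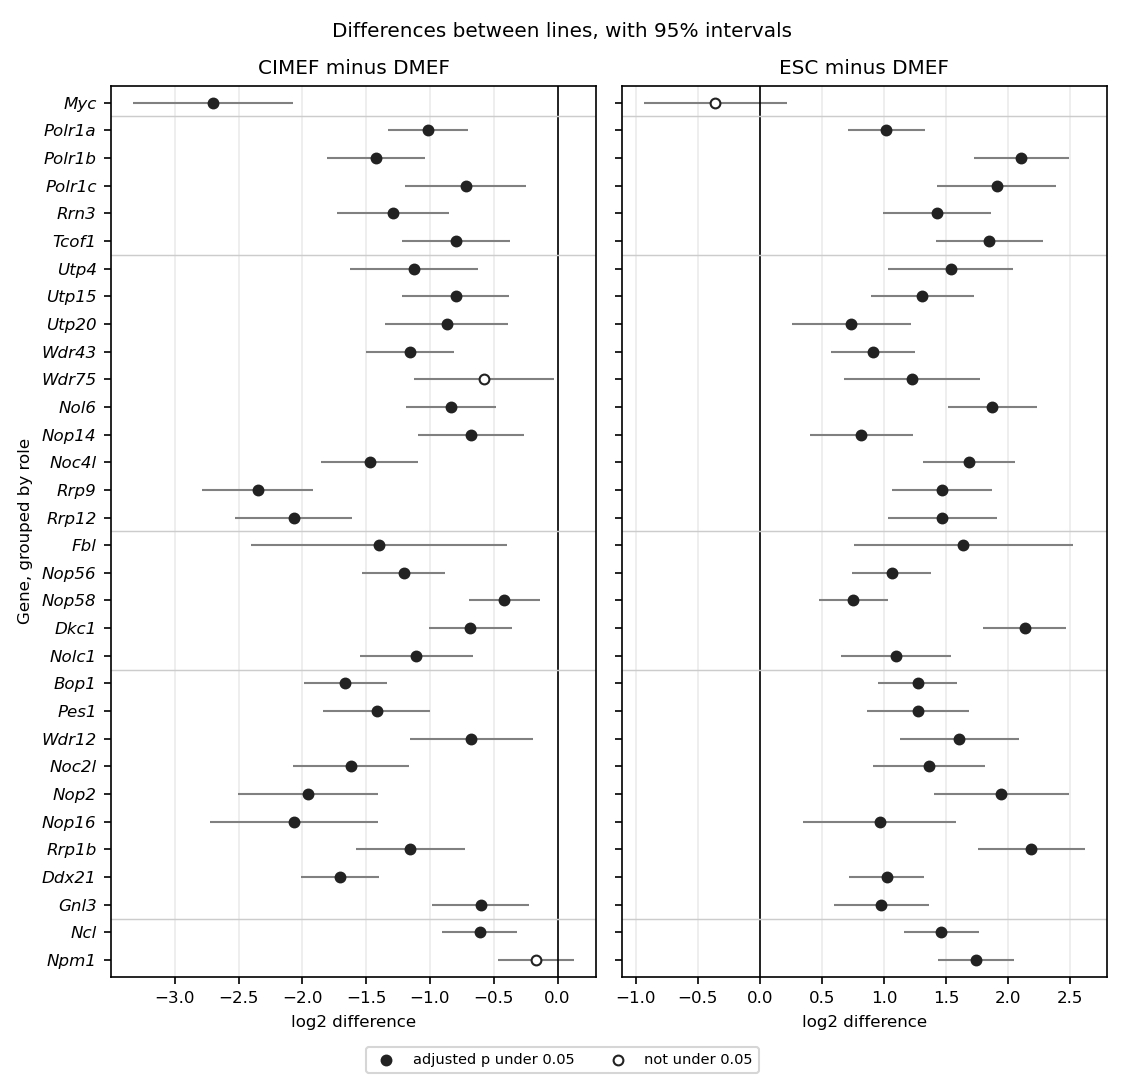
Fitted log2 difference of each listed gene between CIMEF and DMEF (left) and between ESC and DMEF (right), with 95% intervals as bars and filled points for an adjusted p under 0.05. On the left 30 of 32 points are filled and all lie below 0, and on the right 31 are filled and lie above 0, while Myc is open in the right panel.

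Not all falls in CIMEF were equally firm. Of the 32 differences between CIMEF and DMEF, 19 kept their direction and their side of the threshold in all 15 alternative fits, against 29 between ESC and DMEF and 32 between ESC and CIMEF. DMEF library 2 mattered most: without it 21 genes fell, and Polr1c, Tcof1, Utp15, Nop14, Fbl, Nop58, Dkc1, Wdr12 and Gnl3 no longer passed. Without DMEF library 1 the calls of Utp20, Nop14 and Wdr12 were lost, without CIMEF library 1 those of Polr1c, Nop14 and Nop58, and without CIMEF library 2 those of Fbl, Wdr12 and Gnl3. ESC libraries are not compared here, but they enter the spread, the scaling and the low-count filter of the fit. In a fit of only the 4 fibroblast libraries, Polr1c, Nop14, Fbl, Nop58, Wdr12, Gnl3 and Ncl no longer passed. Leaving out an ESC library ended the calls of Polr1c, Nop14, Fbl, Nop58, Dkc1, Wdr12 and Gnl3, and for ESC library 1 also that of Ncl. Among the 30 genes that fell, the lowest shares of alternatives with a call were 7 of 15 for Nop58 and for Wdr12. The sign stayed negative in every one of these fits, except for Npm1 with library totals alone.

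The 2 DMEF libraries themselves differed in these genes. DMEF library 1 was lower than library 2 for 30 of the 32 genes, with a median log2 difference of -0.25, while over all genes with counts in both libraries 49.7% were higher in library 1. The exceptions were Myc, higher in library 1 by 0.73, and Utp20, higher by 0.49. In DMEF the library with more Myc mRNA was thus the one with less mRNA of most of the ribosome production genes. In CIMEF Myc was also on the other side from most of them (-0.23), and in ESC it was on the same side (0.07). With 2 libraries no test of this is possible. In CIMEF 23 of the 32 genes were higher in library 1 (54.5% of all genes), with Fbl at the top (0.71) and Nop14 at the bottom (-0.41). The ESC libraries hardly differed, with a median absolute log2 difference of 0.029 over the 32 genes and 22 genes higher in library 1 (49.1% of all genes).

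**Figure D3:**
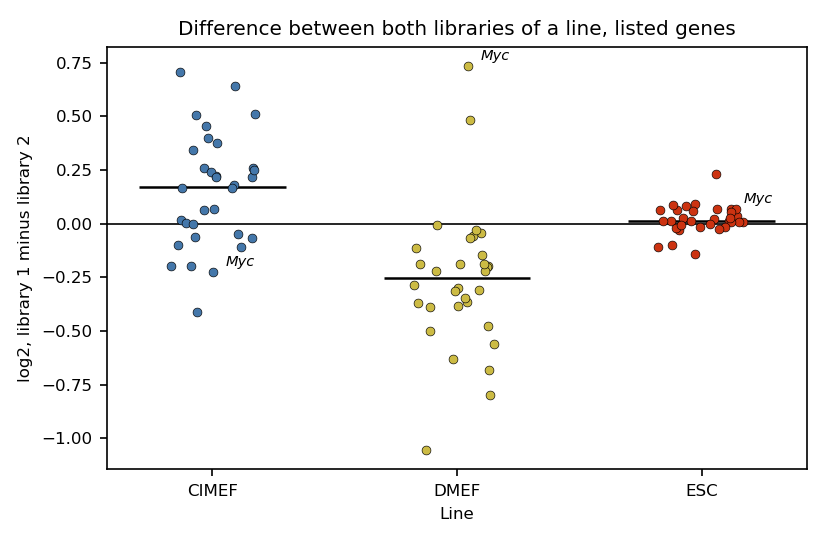
Log2 difference between both libraries of a line (library 1 minus library 2) for the 32 listed genes, 1 point per gene, with the median as a bar and Myc labelled. In DMEF 30 points lie below 0 and Myc lies highest at 0.73; in ESC the points lie between -0.14 and 0.23.

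Relatives and partners of Myc were examined as a list of 13 genes. In CIMEF against DMEF 4 rose and 2 fell, in ESC against DMEF 5 rose and 4 fell, and in ESC against CIMEF 4 rose and 6 fell. Over all genes the shares that rose and fell were 20.6% and 21.4%, 31.5% and 30.2%, and 39.0% and 37.9% in the same comparisons, so the counts of this list of 13 are not far from the background. Without DMEF library 2 the rises in CIMEF were 2, and the rises in ESC against DMEF were 2 without DMEF library 1 and 3 when either ESC library was left out, with 2 falls without ESC library 2. Mycn, a Myc paralog typical of stem cells, had 0.855 and 0.871 CPM in CIMEF, 0.640 and 1.10 CPM in DMEF, and 91.3 and 86.6 CPM in ESC. It was far higher in both ESC libraries than in the fibroblasts, with a log2 difference of 6.64 (SE 0.26, edgeR adjusted p = 4.2e-06) against DMEF. Its mean level in CIMEF and in DMEF was 0.970% and 0.975% of that in ESC, and the 8 pluripotency markers had median levels of 0.723% and 0.821% of ESC in the same lines. Whether those low fibroblast counts come from ESC reads was not tested. Mycl, the third paralog, had 1.00 and 2.31 CPM in CIMEF, 8.57 and 11.6 CPM in DMEF, and 15.3 and 13.1 CPM in ESC, and fell in CIMEF by -2.63 (SE 0.38, edgeR adjusted p = 0.003). CIMEF thus had low levels of Myc and Mycl together, while Mycn was near 1 CPM in both fibroblast lines.

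Max, the shared partner of the Myc proteins, had 60.4 and 66.9 CPM in CIMEF, 53.4 and 75.0 CPM in DMEF, and 77.7 and 72.1 CPM in ESC, and its differences did not pass in any comparison (log2 -0.01 (SE 0.19) in CIMEF against DMEF, 95% interval -0.46 to 0.44). Mlx, which pairs with the Mondo proteins, fell by -0.92 (SE 0.20, edgeR adjusted p = 0.0123), a call lost without DMEF library 2. Among genes of the Mxd and Mnt proteins, which pair with Max and repress E-box genes, Mxi1 had 33.2 and 38.8 CPM in CIMEF, 12.4 and 12.9 CPM in DMEF, and 17.8 and 16.1 CPM in ESC and rose in CIMEF against DMEF by 1.51 (SE 0.17, edgeR adjusted p = 0.00144). Mxd4 had 157 and 233 CPM in CIMEF, 134 and 90.2 CPM in DMEF, and 3.42 and 3.46 CPM in ESC, rose by 0.80 (SE 0.25, edgeR adjusted p = 0.0392), and was lower in ESC than in DMEF by -5.02 (SE 0.31, edgeR adjusted p = 1.6e-05). The rise of Mxd4 in CIMEF was called in 8 of 15 alternatives. Mxd1 (0.54 (SE 0.19, edgeR adjusted p = 0.0607)), Mxd3 (-0.11 (SE 0.22)) and Mnt (0.21 (SE 0.16)) did not pass in that comparison. Mxd1 was called higher in 5 of 15 alternatives, among them DESeq2 and RLE, upper-quartile or no scaling. Mga, which encodes another repressor that pairs with Max, had 474 and 604 CPM in CIMEF, 285 and 316 CPM in DMEF, and 286 and 292 CPM in ESC and rose in CIMEF by 0.84 (SE 0.16, edgeR adjusted p = 0.00657).

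Mlxip, Mlxipl and Fbxw7 complete the list. Mlxip, which encodes the glucose sensor MondoA, had 0.08 (SE 0.14) between CIMEF and DMEF and fell in ESC against DMEF by -0.92 (SE 0.15, edgeR adjusted p = 0.00138). Mlxipl passed as higher in CIMEF from a level of 1.34 and 0.305 CPM against 0.0400 and 0 in DMEF, too few counts for a stable size, and was not called when either DMEF library was left out. Fbxw7, whose protein marks Myc for destruction, had 0.01 (SE 0.22) between CIMEF and DMEF and rose in ESC against DMEF by 0.85 (SE 0.22, edgeR adjusted p = 0.0136), a call lost without DMEF library 1 and when either ESC library was left out.

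**Figure D4:**
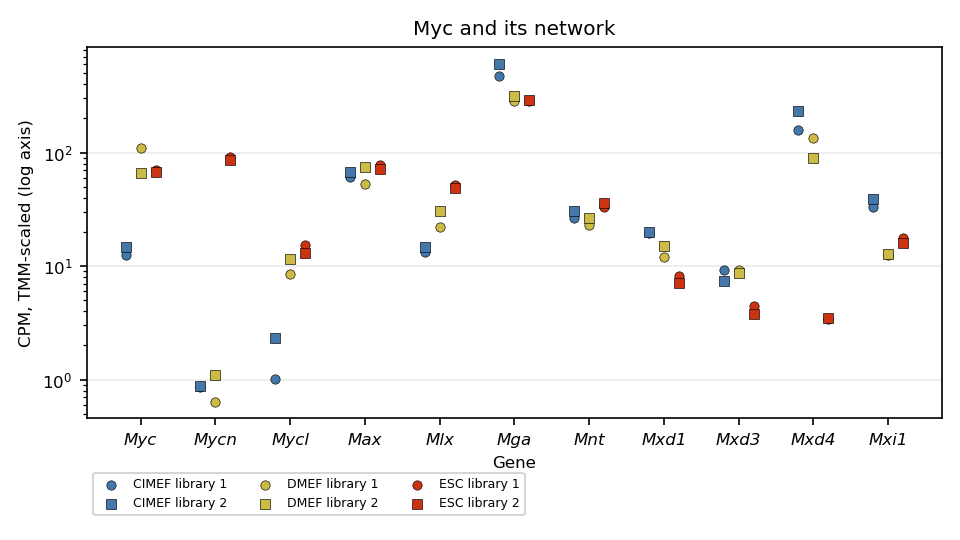
CPM (log axis) of Myc and 10 genes of its network in the 6 mRNA libraries, 1 point per library. Myc, Mycl and Mlx are lowest in CIMEF, and Mycn is near 1 CPM in both fibroblast lines and 86.6 to 91.3 CPM in ESC. Mxi1, Mxd1, Mxd4 and Mga are highest in CIMEF, although Mxd1 did not pass in CIMEF against DMEF.

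Other genes of ribosome production, not among the 32, moved in the same direction in most cases, with smaller medians. Of 38 tested further genes of the small subunit, 29 fell and 0 rose in CIMEF against DMEF (median log2 difference -0.78), and 31 rose and 0 fell in ESC against DMEF (median 1.07). Bysl (-1.91 (SE 0.19)) and Tbl3 (-1.79 (SE 0.14)) had the lowest values in CIMEF, while Ddx52 (0.08 (SE 0.15)) and Riok1 (0.26 (SE 0.14)) had the highest and did not pass. Of 53 further genes of the large subunit, 35 fell and 0 rose in CIMEF (median -0.77), and 45 rose and 0 fell in ESC (median 1.05). Mrto4 (-2.03 (SE 0.20)) and Rrs1 (-1.71 (SE 0.19)) were lowest, and Ddx55 (0.08 (SE 0.22)) and Nvl (0.12 (SE 0.19)) were highest without passing. In both lists 0 genes were higher in CIMEF at an unadjusted p under 0.05 or by DESeq2. Without DMEF library 2, the falls numbered 20 of the 38 and 22 of the 53, and those of the small subunit were 18 and 19 without ESC library 1 or 2 and 19 with library totals alone.

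Of 12 further snoRNP genes, 7 fell in CIMEF against DMEF and 12 rose in ESC against DMEF. Nhp2, a core protein gene of the box H/ACA particle and thus a partner of Dkc1, had 10.5 and 10.1 CPM in CIMEF, 39.0 and 60.9 CPM in DMEF, and 209 and 201 CPM in ESC. It fell by -2.28 (SE 0.23, edgeR adjusted p = 0.00102) where Dkc1 fell by -0.68 (SE 0.14). Ruvbl2, an assembly helicase gene, fell by -1.54 (SE 0.17, edgeR adjusted p = 0.00132), and Znhit6 (-0.15 (SE 0.19)) and Pih1d1 (0.27 (SE 0.15)) did not pass. The RNA exosome, which trims the precursor, had 8 of 14 genes lower in CIMEF against DMEF, with Exosc9 (-1.05 (SE 0.18)) and Exosc2 (-0.97 (SE 0.22)) lowest and C1d (-0.02 (SE 0.16)) and Exosc7 (0.06 (SE 0.17)) highest. Among all tested genes 21.4% fell in this comparison. The exosome count without DMEF library 2 is near the share over all genes in that fit. Without DMEF library 2 the exosome count was 2, without CIMEF library 1 it was 5, and when either ESC library was left out or with library totals alone it was 4. The count of 7 falls among the further snoRNP genes was 4 when either ESC library was left out.

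The polymerase I machinery beyond the 5 listed genes was mixed in CIMEF. Of 9 tested genes 3 fell and 1 rose against DMEF (median log2 difference -0.18), beside 5 of 5 falls among the listed genes of the same machine. Among all tested genes 21.4% fell and 20.6% rose, so the counts of this list of 9 are not far from the background. Polr1e had 8.96 and 7.97 CPM in CIMEF, 22.9 and 27.8 CPM in DMEF, and 42.4 and 39.7 CPM in ESC and fell by -1.58 (SE 0.18, edgeR adjusted p = 0.00147). Polr1d, the gene of a subunit shared with polymerase III, had 17.1 and 15.5 CPM in CIMEF, 45.8 and 42.8 CPM in DMEF, and 61.0 and 60.2 CPM in ESC and fell by -1.44 (SE 0.15, edgeR adjusted p = 0.0011). Ttf1, the gene of the transcription termination factor, had a difference of 0.36 (SE 0.15) that did not pass. Taf1b, a gene of the promoter selectivity factor, had 20.5 and 21.4 CPM in CIMEF, 15.3 and 13.0 CPM in DMEF, and 21.4 and 20.9 CPM in ESC and rose by 0.56 (SE 0.17, edgeR adjusted p = 0.0363). The rise of Taf1b was called in 8 of 15 alternatives. All 9 rose in ESC against DMEF, and 4 did when either ESC library was left out.

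Ribosomal protein genes fell in CIMEF in 46 of 79 cases and rose in 1 (median log2 difference -0.74), and rose in ESC against DMEF in 43 and fell in 1 (median 0.63). Rps2 (-1.85 (SE 0.15)) and Rpl8 (-1.61 (SE 0.16)) were lowest in CIMEF, and Rpl5 (0.55 (SE 0.26), not passing) and Rpl15 (0.91 (SE 0.28)) highest. These genes have many near-identical pseudogenes, so their counts are uncertain. Without DMEF library 2, 30 fell in CIMEF, where 10.7% of all genes fell. Without ESC library 1 or 2, 25 and 18 rose in ESC, where 21.8% and 21.1% of all genes rose, so the count of 18 of 79 is near the share over all genes. The gene that fell in ESC was Rps2 (-0.40 (SE 0.14, edgeR adjusted p = 0.0454)), which was called in 4 of 15 alternatives and not by DESeq2. The rise of Rpl15 in CIMEF was called in 9 of 15. Of 24 genes known as Myc targets outside ribosome production, 19 fell in CIMEF against DMEF and 0 rose (1 higher at an unadjusted p under 0.05, 0 by DESeq2; median -1.21), led by Tfrc, the transferrin receptor gene (-2.92 (SE 0.16)), and Ldha, the lactate dehydrogenase gene (-2.71 (SE 0.16)). Slc3a2 (0.07 (SE 0.26)) and Tert (0.90 (SE 0.37)) were highest and did not pass. Of the 24, 15 rose and 2 fell in ESC against DMEF. Of 8 noncoding host genes of small nucleolar RNAs, edgeR called 0 in either direction in CIMEF against DMEF (1 lower at an unadjusted p under 0.05, 0 by DESeq2). Their median was 0.11, and -0.03 to 0.28 under the alternatives (from Snhg3 at -0.53 (SE 0.21) to Snhg8 at 0.31 (SE 0.22)), and 5 of 8 rose in ESC against DMEF (2 without ESC library 2). Among all tested genes 21.4% fell and 20.6% rose in CIMEF against DMEF, and 31.5% rose and 30.2% fell in ESC against DMEF. For the noncoding host genes, the count of 2 of 8 without ESC library 2 is near the share over all genes in that fit. The difference between the list of host genes and the others was not tested.

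**Figure D5:**
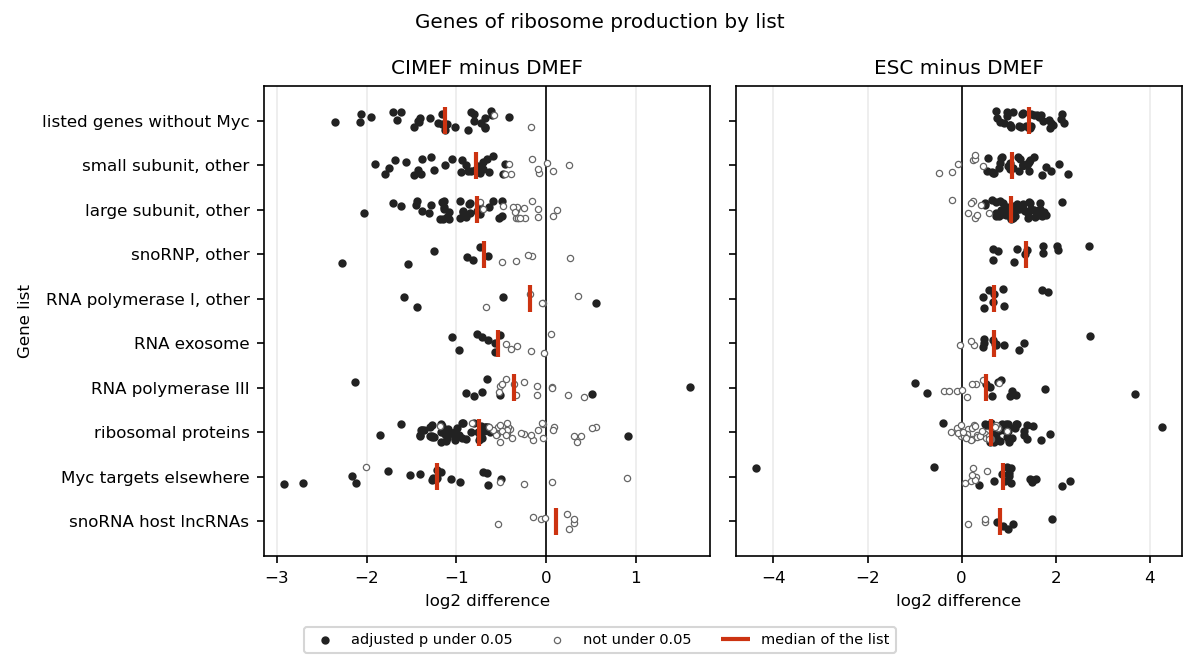
Log2 difference of each gene (1 point per gene) of the listed genes without Myc and of 9 other lists, between CIMEF and DMEF (left) and between ESC and DMEF (right), with filled points for an adjusted p under 0.05 and a bar at the median of each list. In the left panel the listed genes have a median of -1.13 and the noncoding host genes one of 0.11.

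Most markers of dividing cells moved in the same direction as the listed genes between the fibroblast lines. Of 10 proliferation genes 7 fell and 1 rose in CIMEF against DMEF, where 21.4% of all tested genes fell and 20.6% rose. Their summed level was 2796 and 2681 CPM in CIMEF, 3166 and 3355 CPM in DMEF, and 4675 and 4647 CPM in ESC. Mki67, which encodes the proliferation antigen Ki-67, was the gene that rose, by 0.72 (SE 0.15, edgeR adjusted p = 0.00961). Its means of 1070 CPM in CIMEF and 649 CPM in DMEF make up a large part of these sums. The median level of the 10 genes in CIMEF was 54.6% of that in DMEF. Top2a was also higher in CIMEF (117% of the DMEF mean) but did not pass, and Pcna was at 97.6%. The part of proliferation in the differences of the listed genes was not tested. The fibroblast lines also differed in fibroblast markers: of 8 genes Pdgfra, Col3a1, Pdgfrb and Col1a2 rose in CIMEF against DMEF (to 570%, 303%, 217% and 177% of the DMEF mean), Vim and Fn1 fell (to 41.9% and 53.7%), and Thy1 (16.5%) and Col1a1 (113%) did not pass. These 6 calls were lost without DMEF library 2, and 2 higher and 1 lower were called without DMEF library 1. The part of these differences in those of the listed genes was not tested. In sum, fibroblast markers came to 31281 to 34830 CPM in both fibroblast lines and to 2502 and 2533 CPM in ESC, and pluripotency markers to 45.0 to 67.7 CPM in the fibroblasts and 4311 to 4358 CPM in ESC. The listed genes in CIMEF were at 6.68% to 44.5% of their ESC level (median 15.9%), where the pluripotency markers had a median of 0.723%. Of the macrophage markers Adgre1 and Tyrobp had no count in any library, and Cd68 had a mean of 1.57 to 6.59 CPM per line. Of the muscle markers Myog had no count. In ESC the endothelial marker Pecam1 had a mean of 64.8 CPM, the muscle marker Ttn 69.8 CPM, the neural marker Tubb3 75.4 CPM, and the epithelial marker Cdh1, a gene that stem cells themselves express, 1011 CPM. The neural marker Map2 had means of 486 CPM in CIMEF and 337 CPM in DMEF. The endothelial marker of highest mean was Tek in CIMEF (2.64 CPM) and Kdr in DMEF (15.9 CPM). Endothelial markers summed to 4.79 and 6.92 CPM in CIMEF and to 20.1 and 16.3 CPM in DMEF. Of 3 tested endothelial genes 1 fell in CIMEF against DMEF, beside 21.4% of all tested genes.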

How the data were processed

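Of the series' 15 tables, only the mRNA table holds the listed genes, and its 6 libraries were used with groups taken from the sample titles. The values are raw counts per gene as the authors deposited them. Per the labels' protocols, mRNA was selected with poly(A) beads, made into libraries with a directional kit and sequenced as 40-nt single reads. The submitters' processing notes name cutadapt, STAR 2.4, HTSeq 0.9.1 and the genome mm10/GRCm38. The annotation release, the strand setting and the treatment of reads with several matches are not given in the sources used here. Of 54532 identifiers 54409 were paired with symbols through the reference tables, and 32500 had a count.

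All 6 libraries were fitted together with edgeR 4.0.16 in R 4.3.3 (TMM scaling, filterByExpr, quasi-likelihood test, 1 coefficient per line, 3 residual degrees of freedom), which tested 18094 genes. P-values are two-sided. The fit was also run on simulated counts drawn with the same spread for all genes and lines. As the lines differ in spread here, that run is no check of the calls reported. The members and lists were chosen with earlier results of these data known, so no test of a list was made. All members may be named; of each other list, the 2 genes with the lowest and the 2 with the highest CIMEF minus DMEF difference, every gene of the Myc network list, and the marker of highest CPM per line (not corrected for length). Alternatives were RLE, upper-quartile or no scaling, no filter, DESeq2 1.42.0, the legacy quasi-likelihood test, 4 libraries per fit, a replicate block, and leaving out each library. The fit without Gm42418 and Gm26917 was chosen after seeing the data. The ESC libraries differed by more than counting noise and were kept as 2 samples. Levels per transcript length were planned and not made, because no exon lengths were used here. Polr1f, Polr1g, Polr1h and Utp25 were not matched to an identifier. Intervals are 95% intervals of the fitted difference.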

Additional observations from a re-analysis of the deposited data

How the results depend on the processing

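The number of listed genes called between CIMEF and DMEF was 30 in the reported fit and 21 to 28 when 1 library was left out, 24 with library totals alone, 23 in a fit of only the 4 libraries compared, and 28 to 30 under the other alternatives. Between ESC and DMEF the range was 29 to 31 under all alternatives, and between ESC and CIMEF it was 32 in each. Over all genes, 7604 differed between CIMEF and DMEF (3723 higher, 3881 lower), and 3829 (1751 higher, 2078 lower) without DMEF library 2, the lowest of the fits that left out a library, which ranged up to 8544. The cause was not tested. The 2 values that changed sign were Npm1 between CIMEF and DMEF (0.012 with library totals alone) and Myc between ESC and DMEF (0.091 without DMEF library 1, and -0.64 without DMEF library 2). Of the single differences of listed genes, 428 of 480 between CIMEF and DMEF, 473 of 480 between ESC and DMEF and 480 of 480 between ESC and CIMEF kept direction and side of the threshold. Where leaving out a library left 1 in a line, that library was taken to vary like the other lines. The libraries share replicate numbers across lines, but the differences between numbers 1 and 2 were not correlated between lines (r = 0.029, -0.0042 and -0.0078 over 18094 genes). These values show no shared shift by number. With 1 such difference per line, they cannot tell whether libraries of the same number were handled together. With the replicate number as a block, 29, 31 and 32 listed genes were called in the 3 comparisons, and 7287 genes in all between CIMEF and DMEF. Fbl, with 38 to 561 counts, is the listed gene most limited by depth.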

Other observations

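RNA polymerase III, which makes transfer RNA and the 5S ribosomal RNA, contains 1 of 2 alternative subunits, encoded by the paralogs Polr3g and Polr3gl. These were the lowest and the highest of the 21 polymerase III genes in CIMEF against DMEF, of which 6 fell and 2 rose. Polr3g had 2.83 and 1.65 CPM in CIMEF, 8.09 and 11.7 CPM in DMEF, and 129 and 127 CPM in ESC, and Polr3gl had 15.8 and 15.4 CPM in CIMEF, 5.44 and 4.80 CPM in DMEF, and 2.47 and 2.68 CPM in ESC. Polr3g followed the order of the ribosome production genes and Polr3gl the opposite order, with no overlap between lines in either gene. In CIMEF against DMEF the log2 differences were -2.13 (SE 0.29, edgeR adjusted p = 0.00248) and 1.61 (SE 0.21, edgeR adjusted p = 0.00198), and in ESC against DMEF they were 3.69 (SE 0.27, edgeR adjusted p = 3.4e-05) and -0.99 (SE 0.23, edgeR adjusted p = 0.00754). The last of these was not called when either ESC library was left out. Brf1, an initiation factor gene of the same polymerase, was also higher in CIMEF (0.52 (SE 0.16, edgeR adjusted p = 0.0365)) and lower in ESC (-0.74 (SE 0.16, edgeR adjusted p = 0.00575)), and its rise in CIMEF was called in 7 of 15 alternatives. Its fall in ESC was lost with library totals alone and when either ESC library was left out. Polr3c, a subunit gene, had -0.89 (SE 0.17, edgeR adjusted p = 0.00678) in CIMEF and 0.78 (SE 0.16, edgeR adjusted p = 0.00531) in ESC, the latter not called without ESC library 1. In ESC against DMEF 10 of the 21 genes rose and 2 fell. The 6 falls in CIMEF were 3 without DMEF library 2, when either ESC library was left out or with library totals alone, and the 10 rises in ESC were 5 and 6 without ESC library 1 or 2. Over all genes 21.4% fell in CIMEF and 31.5% rose in ESC, and 21.8% and 21.1% rose without ESC library 1 or 2, so the counts of 5 and 6 of 21 are near the share over all genes.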
